A study of Rattus norvegicus with 12 samples.

Results

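The genes described here are 10 that are linked to neutrophils or to antimicrobial granules, namely *S100a8*, *S100a9*, *Lcn2*, *Camp*, *Ngp*, *Ltf*, *Mpo*, *Elane*, *Csf3r*, and *Np4*, and they were chosen by symbol. Of the 10 genes, 9 were found among the 25620 genes of the count table, and *Np4* was not analysed here. The data were RNA sequencing of wound tissue, labelled skin, from male SD rats made diabetic with streptozotocin (STZ), a toxin of the insulin-producing cells. Every rat carried a full-thickness wound of the back, which was given saline (Control), the dried mucus gel of the snail *A. fulica* (d-SMG), the glycosaminoglycan isolated from that gel (GAG), or an alginate dressing (Alg) that served as the positive control. Tissue was taken on day 3, 7, and 14, and each of the 4 treatments had 1 library on each of the 3 days, 12 libraries in all. Because a treatment had 1 library a day, a difference between 2 libraries had no replicate check. Whether a library held the RNA of 1 rat or of several was not stated, and STZ diabetes was shared by all groups, so that no wound of a non-diabetic rat entered any comparison.

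Neutrophils are short-lived leukocytes that enter a wound within hours and leave it, or are taken up by macrophages, as the inflammation resolves. Their granule proteins are made in the bone marrow, primary granules first and secondary granules later, and much of that transcription is switched off before the cell is released into the blood. In contrast, the calcium-binding proteins of *S100a8* and *S100a9* stay abundant in mature neutrophils, and both genes, like *Lcn2*, are also switched on in keratinocytes of injured skin. In bulk tissue, fewer cells of a type and less RNA per cell cannot be told apart.

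The 12 libraries held 13748887 to 38302461 reads on genes. Levels are given below as CPM, the reads of a gene scaled to the size of the library after TMM normalization, with exact 95% intervals that cover the counting error only. A total of 2 libraries held the extremes of the keratinocyte markers, and tissue markers differed between other libraries as well. In the d-SMG library of day 3, the summed level of 9 keratinocyte markers was 52.5 CPM, against 4103 to 32451 CPM in the other 11 libraries, and that of 6 skeletal muscle markers was the highest at 154924 CPM. In the GAG library of day 14, the keratinocyte markers were highest at 32451 CPM, whereas the pan-leukocyte gene *Ptprc* was lowest at 26.6 CPM, against 61.6 to 222 CPM elsewhere. No defining keratinocyte marker of the 9 was at 0 in any library. The part of these tissue differences in the results below was not tested.

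Of the 9 genes, 5 that encode granule proteins, *Mpo*, *Elane*, *Camp*, *Ngp*, and *Ltf*, were close to the detection limit in all wounds, whereas *Lcn2*, a further secondary granule gene, was not. *Mpo* (chromosome 10), encoding the myeloperoxidase of primary granules, had 39 reads in all 12 libraries together and no more than 8 in any. *Elane* (chromosome 7), the neutrophil elastase of the same granules, had 20 reads in all and at most 6 in a library. For the secondary granules, *Camp*, encoding the cathelicidin precursor, had 8 reads, *Ngp*, a neutrophilic granule protein, had 4, and *Ltf*, the iron-binding lactoferrin, had 4, all 3 genes being on chromosome 8. Together, these 5 genes took 75 of 229820455 reads, or 0.324 CPM with an upper 95% limit of 0.406 CPM.

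Per library, these 5 genes had 0 to 8 reads each. The 8 *Camp* reads lay in 5 libraries, with 3 in Control on day 7, 2 in d-SMG on day 7, and 1 in each of 3 others. All 4 *Ngp* reads came from the Control library of day 14, and the *Ltf* reads came from 3 libraries. *Mpo* was present in 11 libraries, with 8 reads in Alg on day 3 and 7 reads in GAG on both day 7 and day 14, and its 0 reads were in d-SMG on day 3. *Elane* was at 0 in 3 libraries and had 6 reads in GAG on day 7, the deepest library. For a library with 0 reads, the limit of 3 reads corresponds to 0.0764 to 0.250 CPM, which is the order of the levels themselves. Against the same-day Control, the interval of the log2 difference left out 0 for *Mpo* in GAG on day 14 (7 reads against 1, 0.27 to 8.72) and for *Camp* in GAG on day 7 (0 reads against 3, upper limit −0.14), and no other difference from Control in these 5 genes was detectable at this depth.

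**Figure D1:**
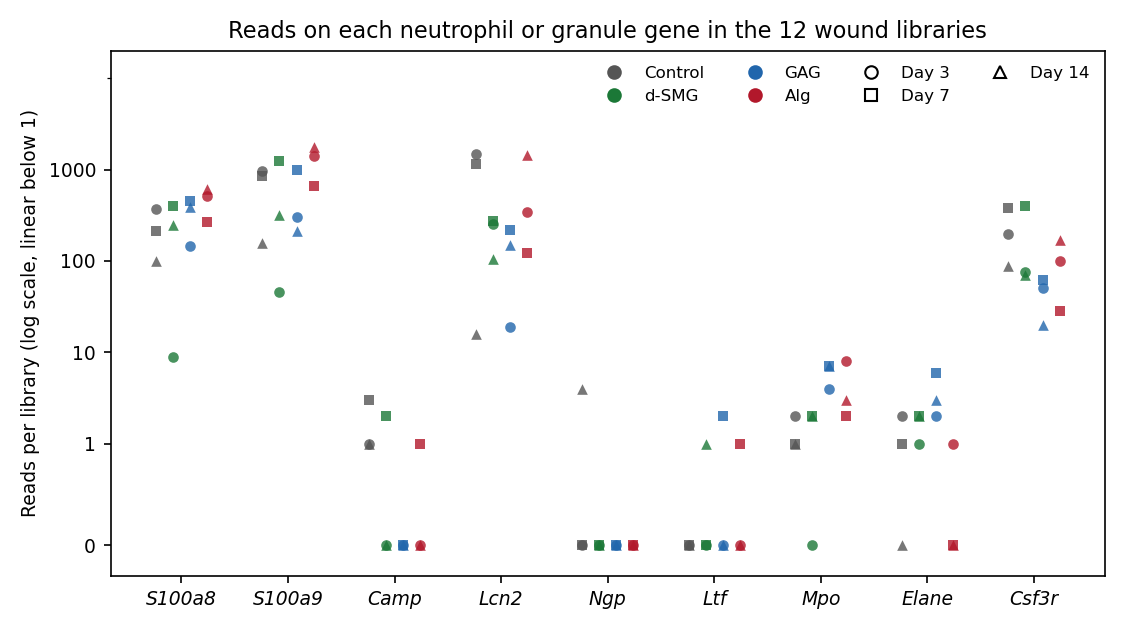
Reads on the 9 genes in each of the 12 libraries (y axis, log scale that is linear below 1 read); colours mark the treatment and symbols the day, with 1 library a point. *Camp*, *Ngp*, *Ltf*, *Mpo*, and *Elane* stay at 0 to 8 reads, whereas *S100a8*, *S100a9*, *Lcn2*, and *Csf3r* reach from 9 to 1748.

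Other genes listed with the same granules ranged from 1 read to 5266 reads in all libraries together, leaving aside the protease inhibitor *Serpinb1a*. Of the primary granule list (7 genes, 6 found), *Prtn3* (proteinase 3) had 2 reads, *Ctsg* (cathepsin G) 1, and *Bpi*, which encodes a protein that binds endotoxin, 13 in all libraries together. The list also held *Serpinb1a*, an inhibitor of neutrophil serine proteases that many cells also make, with 23288 reads. Of 9 rat alpha defensin genes, 3 were found, *RatNP-3b*, *Defa9*, and *Defa10*, each with 1 read. Of 10 secondary and tertiary granule genes, *Cd177* had 3 reads and *Olfm4* 17, whereas *Mmp8*, the neutrophil collagenase, had 236 reads. *Mmp9*, a gelatinase that macrophages and keratinocytes also make, had 1748 reads, *Hp* (haptoglobin) 1105, and *Itgam*, an integrin subunit of neutrophils and macrophages alike, 5266, and these 4 genes had reads in every library.

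The 4 remaining genes were measured in every library. *S100a8* (chromosome 2) and *S100a9* (chromosome 2) encode the subunits of calprotectin, which withholds metal ions from microbes and signals through TLR4. *Lcn2* (chromosome 3) encodes lipocalin 2, which binds bacterial siderophores and is stored in secondary granules, and *Csf3r* (chromosome 5) encodes the receptor for G-CSF, the growth factor that drives the formation of neutrophils. Scaled by gene length, as the FPKM deposited by the authors, the median over the 12 libraries was highest for *S100a8* (30.4), followed by *S100a9* (18.8), *Lcn2* (12.1), and *Csf3r* (1.10). Between the lowest and the highest library, the CPM differed 51.5-fold for *S100a8*, 28.8-fold for *S100a9*, 117-fold for *Lcn2*, and 19.8-fold for *Csf3r*.

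The sequence just before the start of transcription is shown for the 3 of these 4 genes with an entry in the RefSeq promoter table (GRCr8), because their patterns over the libraries differed from one another, as described below. Entries were found for 8 of the 10 genes, and not for *S100a8* and *Elane*. Each run holds the 150 bases before the start, 5′ to 3′ on the strand of the gene. Capitals mark the letters that matched a searched motif, which of the 3 genes shown only *S100a9* had. The runs lie at chr2:178490623-178490772 (minus strand), chr3:36081781-36081930 (minus strand), and chr5:143583070-143583219 (plus strand), in this order.
S100a9: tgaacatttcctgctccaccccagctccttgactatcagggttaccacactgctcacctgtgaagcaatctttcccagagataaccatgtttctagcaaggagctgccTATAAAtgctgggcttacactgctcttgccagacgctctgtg
Lcn2: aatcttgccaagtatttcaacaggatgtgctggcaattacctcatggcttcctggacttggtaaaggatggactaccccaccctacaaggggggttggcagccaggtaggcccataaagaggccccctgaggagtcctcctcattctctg
Csf3r: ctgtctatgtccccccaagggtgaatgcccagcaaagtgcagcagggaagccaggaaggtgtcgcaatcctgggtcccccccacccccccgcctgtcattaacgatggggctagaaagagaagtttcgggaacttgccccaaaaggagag

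The motifs searched on both strands were TTGCNNAA, which C/EBP factors bind, GAGGAA, which ETS factors bind, and TATAAA, the core promoter box, and 5.37%, 14.5%, and 8.0% of the 33469 promoter windows of this length held them, respectively. *S100a9* had the core promoter box, which began 42 bases before the start, and no other match. *Lcn2* and *Csf3r* had no match to these letters in this window. A match or its lack describes the letters only.

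*S100a8* and *S100a9* were lowest in the d-SMG wound of day 3 and highest in the Alg wound of day 14. On day 3, *S100a8* was at 15.8 CPM in Control, 0.749 in d-SMG, 8.22 in GAG, and 25.2 in Alg, from 371, 9, 145, and 510 reads. On day 7, the same 4 wounds had 14.4, 18.9, 11.4, and 17.8 CPM, and on day 14 they had 4.85, 15.5, 25.4, and 38.6 CPM. The 4 wounds thus lay closest together on day 7, within 1.66-fold, and farthest apart on day 3, at 33.6-fold. *S100a9* was at 41.4 CPM in Control, 3.83 in d-SMG, 17.3 in GAG, and 70.4 in Alg on day 3. Its levels on day 7 were 57.6, 59.1, 25.5, and 44.3 CPM, and on day 14 they were 7.56, 20.0, 14.0, and 110 CPM. For this gene, too, the spread was smallest on day 7 (2.32-fold).

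With the libraries ordered by level, the intervals of neighbouring libraries did not overlap in 6 of 11 pairs for *S100a8* and in 7 of 11 pairs for *S100a9*. In both genes the Alg library of day 14 at the top and the d-SMG library of day 3 at the bottom were separated from their neighbours. In the middle of the order, *S100a8* in Alg, Control, and d-SMG ran from 18.9 CPM (d-SMG, day 7) to 14.4 CPM (Control, day 7) without a gap beyond the counting error.

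The time course of the calprotectin genes differed between the wounds. In Control, *S100a9* was 7.61-fold lower on day 14 than on day 7 (log2 difference −2.93, interval −3.18 to −2.68), and *S100a8* was 2.98-fold lower (−1.57, interval −1.93 to −1.22). In d-SMG, *S100a9* was 15.4-fold higher on day 7 than on day 3 (3.95, interval 3.52 to 4.41) and then 2.95-fold lower on day 14 (−1.56, interval −1.74 to −1.38). In the GAG wound, *S100a8* was 2.23-fold higher on day 14 than on day 7, whereas *S100a9* was 1.82-fold lower. In Alg, both genes were higher on day 14 than on day 7, *S100a8* 2.16-fold and *S100a9* 2.49-fold.

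The GAG library of day 14 also stood out in the ratio of the subunits. The reads of *S100a8* per read of *S100a9* ranged from 0.196 to 0.772 in 11 libraries, with the lowest in d-SMG on day 3 (9 to 46 reads, interval 0.0842 to 0.405). In the GAG library of day 14 the ratio was 1.82 (391 to 215 reads, interval 1.54 to 2.16). The Control and d-SMG libraries of day 14 came next at 0.641 and 0.772, whereas Alg on day 14 was at 0.350.

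**Figure D2:**
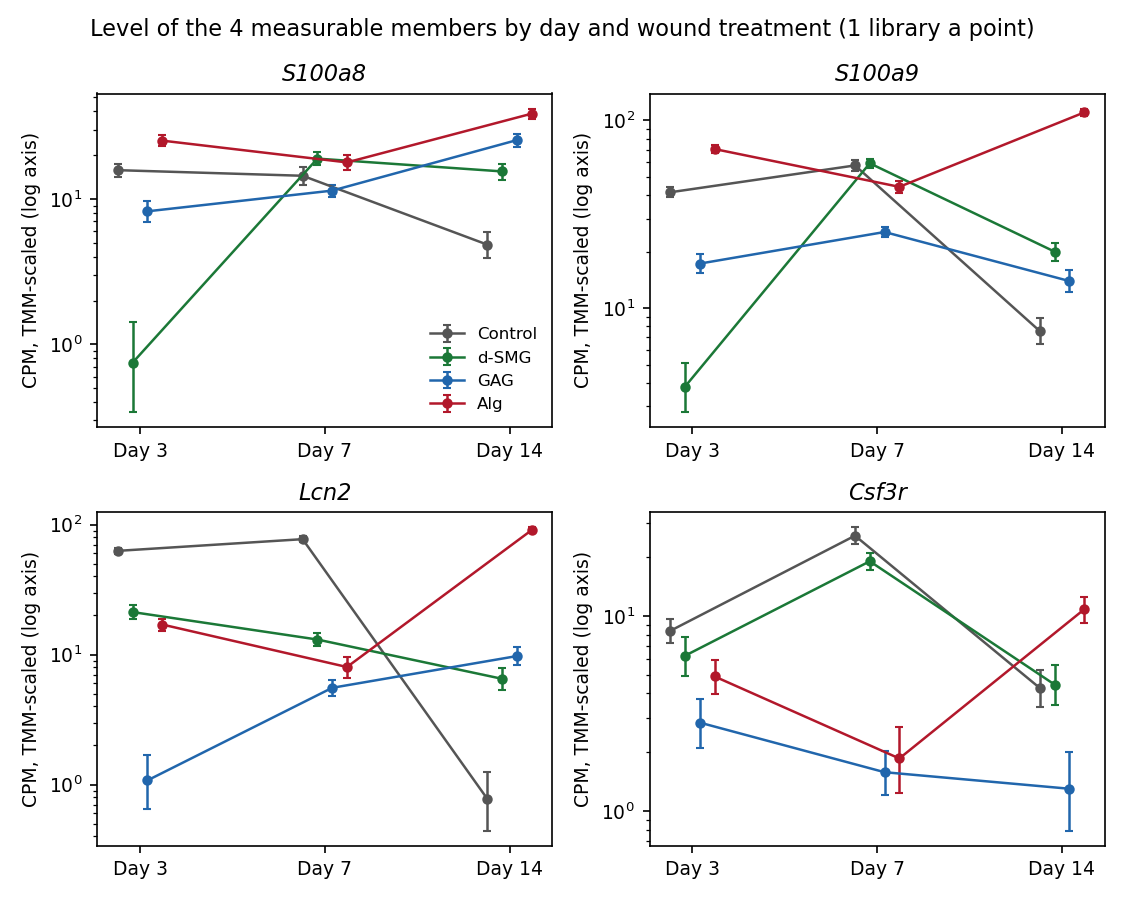
TMM-scaled CPM (y axes, log scale) of *S100a8*, *S100a9*, *Lcn2*, and *Csf3r* on day 3, 7, and 14 (x axes) in the 4 treatments, with 1 library a point and exact 95% counting intervals. For *S100a8*, *S100a9*, and *Lcn2*, Control is the lowest and Alg the highest of the 4 wounds on day 14.

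*Lcn2* had the widest range of the 4 genes, and its extremes were in Control and Alg. On day 3 it was at 62.8 CPM in Control, 21.2 in d-SMG, 1.08 in GAG, and 17.0 in Alg, from 1477, 255, 19, and 345 reads. On day 7 the levels were 77.2, 13.1, 5.55, and 8.02 CPM, so that Control was the highest wound on both days. On day 14 they were 0.776, 6.51, 9.74, and 90.7 CPM, from 16, 104, 150, and 1439 reads, and Control was the lowest.

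Within Control, *Lcn2* was thus 99.6-fold lower on day 14 than on day 7 (log2 difference −6.64, interval −7.45 to −5.93). In d-SMG it was 2.01-fold lower between the same days (−1.0, interval −1.34 to −0.67), in GAG 1.75-fold higher (0.81, interval 0.50 to 1.12), and in Alg 11.3-fold higher (3.50, interval 3.23 to 3.78). In the order of the 12 libraries, the top 3 were Alg on day 14, Control on day 7, and Control on day 3, each separated from the next beyond the counting error. The lowest levels, those of GAG on day 3 and Control on day 14, had overlapping intervals.

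*Csf3r* followed another pattern, with its peak on day 7 in Control and d-SMG and low levels in GAG throughout. On day 3 it was at 8.37 CPM in Control, 6.24 in d-SMG, 2.83 in GAG, and 4.89 in Alg. On day 7 these levels were 25.7, 19.0, 1.58, and 1.86 CPM, from 380, 398, 62, and 28 reads. On day 14 they were 4.27, 4.44, 1.30, and 10.8 CPM. Between day 3 and day 7, *Csf3r* was 3.07-fold higher in Control and 3.05-fold higher in d-SMG on the later day, and in Alg 2.63-fold lower. Only 2 of the 11 neighbouring pairs in its order were separated beyond the counting error, those below Control on day 7 and below d-SMG on day 7, so that GAG and Alg on day 7 did not differ beyond it.

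Each dressed wound was then compared with the control wound of the same day, to ask whether these genes differed under a dressing at that stage of healing. The 3 dressings of a day share 1 control library, and their values are therefore not independent. A gene was tested for passing a 2-fold difference where it had at least 10 reads in the pair of libraries, which held for *S100a8*, *S100a9*, *Lcn2*, and *Csf3r* in all 9 pairs, and for *Mpo* in 1.

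On day 3, *S100a8*, *S100a9*, and *Lcn2* were lower in d-SMG than in Control past 2-fold (3 of 4 genes), where 13.1% of all genes tested were past 2-fold lower and 9.88% higher. *S100a8* was 21.0-fold lower (log2 difference −4.40, interval −5.54 to −3.46), *S100a9* 10.8-fold lower (−3.44, interval −3.90 to −3.01), and *Lcn2* 2.96-fold lower (−1.56, interval −1.76 to −1.37). *Csf3r* differed by less, at −0.42 (interval −0.83 to −0.03). This is the library with few keratinocyte transcripts, and its *Ptprc* level was 114 CPM, against 187 CPM in Control. Per read of *Ptprc*, *S100a9* stood at 0.0336 in d-SMG and 0.222 in Control, and *S100a8* at 0.00656 and 0.0843. On the same measure *Lcn2* was at 0.186 in d-SMG and 0.336 in Control, within 2-fold. *Csf3r* stood the other way, at 0.0547 in d-SMG and 0.0448 in Control.

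In GAG on day 3, 3 of 4 genes were past 2-fold lower (background 11.4% lower, 14.2% higher). *Lcn2* differed most, 58.3-fold lower (−5.87, interval −6.60 to −5.22), followed by *Csf3r* (−1.56, interval −2.04 to −1.11) and *S100a9* (−1.26, interval −1.45 to −1.07). In Alg on day 3, *Lcn2* was 3.69-fold lower (−1.88, interval −2.06 to −1.71), whereas *S100a9* (0.76) and *S100a8* (0.67) were higher than in Control by less than 2-fold. *Mpo* counted as higher with 8 reads against 2, with Control set to the floor of 3 reads, but the interval of its log2 difference, −0.11 to 5.49, held 0. Thus 1 of 5 genes was lower and 1 higher (background 8.79% lower, 11.4% higher).

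On day 7, *Lcn2* was again below Control in each dressed library, 5.92-fold in d-SMG (−2.56, interval −2.76 to −2.37), 13.9-fold in GAG (−3.80, interval −4.01 to −3.59), and 9.63-fold in Alg (−3.27, interval −3.55 to −3.0). In d-SMG it was the only 1 of 4 genes past 2-fold (background 5.74% lower, 7.35% higher), and *S100a9* was level with Control (0.04, interval −0.09 to 0.17). *Csf3r* was 16.3-fold lower in GAG (−4.03, interval −4.44 to −3.64) and 13.9-fold lower in Alg (−3.79, interval −4.40 to −3.24). In GAG, 3 of 4 genes were past 2-fold lower (background 12.5% lower, 11.8% higher), and in Alg 2 of 4 (background 12.1% lower, 12.3% higher). Tissue markers differed in the pairs of day 7 as well. The summed skeletal muscle markers were at 3985 CPM in d-SMG, 27478 in GAG, and 106838 in Alg against 42745 in Control. In GAG and in Alg, 9 of 9 keratinocyte markers were past 2-fold higher and 5 of 6 fibroblast markers lower. In d-SMG these counts were 6 of 9 and 1 of 6. The part of these markers in the values was not tested. *Ptprc* was also lower in GAG and Alg, at 61.6 and 65.5 CPM against 202 in Control. Per read of *Ptprc*, *Csf3r* was at 0.128 in Control, 0.0256 in GAG, and 0.0283 in Alg. *Lcn2* was lower on this measure too, at 0.0901 in GAG and 0.122 in Alg against 0.383 in Control. The calprotectin genes stood the other way. *S100a9* was at 0.413 in GAG and 0.676 in Alg against 0.285 in Control, and *S100a8* at 0.185 and 0.272 against 0.0715.

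On day 14, when the Control levels of *S100a8*, *S100a9*, and *Lcn2* were at their lowest, the dressed wounds stood above Control in these genes. Tissue markers differed in these pairs as well. The 6 skeletal muscle markers summed to 4553 CPM in d-SMG and 8752 in Alg against 40041 in Control, all 6 being past 2-fold lower in both. In GAG they summed to 70204 CPM, with 3 of 6 past 2-fold higher than in Control and 1 lower. The summed wound keratinocyte genes were at 2798 CPM in d-SMG, 7707 in GAG, and 2351 in Alg against 737 in Control. Most of each sum was *Krt17*, at 2555, 7380, and 1830 against 624 CPM, whereas *Sprr1a* was at 18.5, 32.5, and 86.4 against 40.3 CPM. Of the 9 keratinocyte markers, 4 were past 2-fold higher and 3 lower in d-SMG and likewise in GAG. In Alg, 3 were higher and 0 lower. The part of these markers in the values below was not tested. In d-SMG, 3 of 4 genes were past 2-fold higher (background 12.7% higher, 16.1% lower), namely *Lcn2* at 8.39-fold (3.07, interval 2.30 to 3.93), *S100a8* at 3.19-fold (1.67, interval 1.33 to 2.02), and *S100a9* at 2.65-fold (1.40, interval 1.12 to 1.69). *Csf3r* did not differ detectably there (0.06, interval −0.41 to 0.53). In Alg, all 4 genes were past 2-fold higher (background 9.51% higher, 11.8% lower), with *Lcn2* at 117-fold (6.87, interval 6.17 to 7.68), *S100a9* at 14.6-fold (3.86, interval 3.63 to 4.11), *S100a8* at 7.96-fold (2.99, interval 2.69 to 3.31), and *Csf3r* at 2.53-fold (1.34, interval 0.96 to 1.72).

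The GAG wound of day 14 was split. *Lcn2* was 12.6-fold higher (3.65, interval 2.90 to 4.49) and *S100a8* 5.24-fold higher (2.39, interval 2.07 to 2.72), *S100a9* was higher by less than 2-fold (0.88, interval 0.58 to 1.19), whereas *Csf3r* was 3.28-fold lower (−1.72, interval −2.50 to −1.0). *Ptprc* was at 26.6 CPM in this library against 191 in Control, and the summed macrophage markers were at 159 against 1302 CPM. Per read of *Ptprc*, *Csf3r* stood the other way, at 0.0489 in GAG and 0.0223 in Control. The part of these markers in the *Csf3r* difference was not tested. With 2 of 4 genes higher and 1 lower, the background of this pair was also the widest, at 26.6% higher and 31.1% lower. On the FPKM scale with a pseudocount of 1, the *Csf3r* difference was −0.69, within 2-fold, and that of Alg on day 14 was 0.89. The *Csf3r* difference of GAG on day 3 was also within 2-fold on that scale, from an FPKM of 0.73 against 1.94 in Control.

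**Figure D3:**
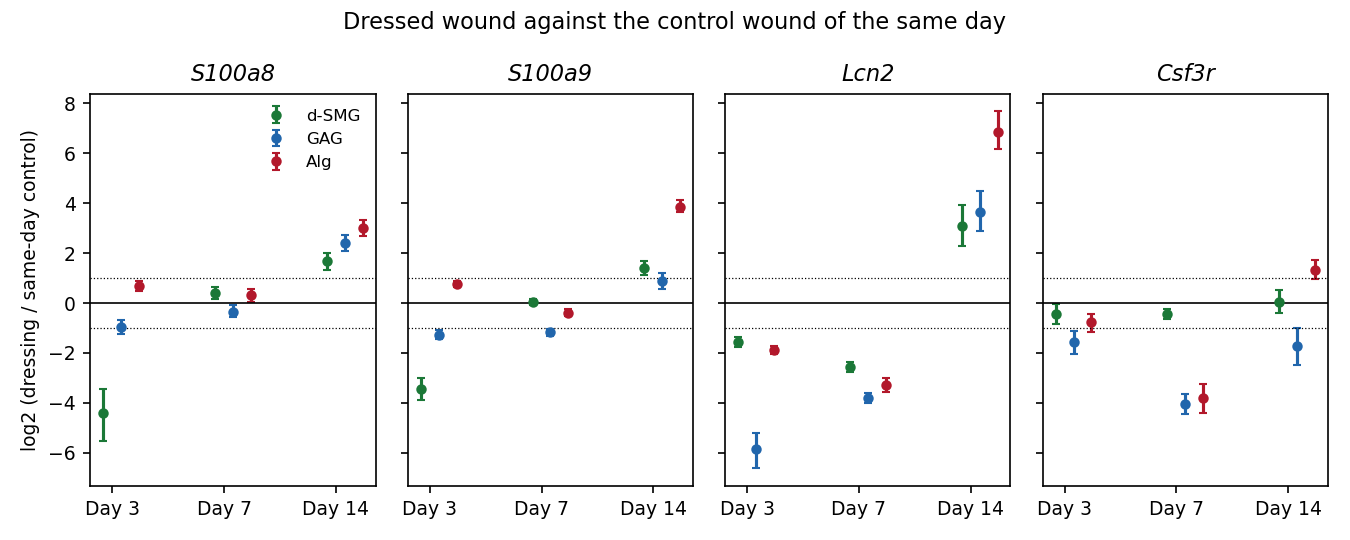
log2 difference in TMM-scaled level between each dressed wound and the control wound of the same day (y axis) for *S100a8*, *S100a9*, *Lcn2*, and *Csf3r*, with 95% counting intervals, 1 library per group and dotted lines at 2-fold. *Lcn2* lies between −5.87 and −1.56 on day 3 and 7 and between 3.07 and 6.87 on day 14, and *Csf3r* in GAG lies below 0 on each day.

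With all 12 libraries in 1 model, in which the days stand in for replicates of a treatment and the treatments for replicates of a day, no difference in these genes passed the test. The quasi-likelihood test of edgeR at a false discovery rate (FDR) of 0.05 called 0 of the 4 genes that passed the low-count filter, and also 0% of all 15354 genes, in each of 6 comparisons. These were day 7 against day 3, day 14 against day 3, day 14 against day 7, and d-SMG, GAG, and Alg against Control over the days. At an unadjusted p under 0.05 there were 255, 746, 442, 203, 1398, and 452 genes in this order, where 767.7 are expected by chance, and 1 of the 4 genes in 1 comparison. DESeq2 called 0, 38, 7, 8, 289, and 83 genes, none of them among the 4, and limma on log2(FPKM + 1) called 0 in each. Without the d-SMG library of day 3, edgeR called 67 genes for GAG against Control, and still 0 of the 4.

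The gene with the unadjusted p under 0.05 was *Csf3r* in GAG against Control over the days, which was lower on 3 of 3 days (log2 fold change −2.47, SE 0.89, edgeR adjusted p = 0.499). *Lcn2* had the largest difference in that comparison (−3.38, SE 1.62, adjusted p = 0.560), lower on 2 of 3 days. For Alg against Control, *S100a9* was at 1.37 (SE 0.88) and *S100a8* at 1.06 (SE 0.89), both with an edgeR adjusted p of 1.0. For d-SMG against Control, the 4 values lay between −1.83 (*Lcn2*, SE 1.40) and −0.32 (*Csf3r*, SE 0.81). Between day 14 and day 3 the largest value was that of *S100a8*, 0.90 (SE 0.82, edgeR adjusted p = 0.923). The standard errors of the 4 genes ran from 0.74 to 1.62 on the log2 scale over the 6 comparisons. The median of the 4 genes was −1.64 in GAG, 0.19 in Alg, and −0.44 in d-SMG, against −0.0044, −0.02, and 0.02 over all genes tested.

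The receptors of mature neutrophils were scarce, too, where they are most specific. Of the 12 genes in that list, *Cxcr1* had 1 read, *Fpr1* 2, and *Fpr2* 10 in all libraries together. *Cxcr2*, the receptor for the CXC chemokines that draw neutrophils into tissue, had 138 reads, and it was highest in Control and d-SMG on day 7 at 2.17 and 2.06 CPM. *Mcemp1* reached its highest level in Control on day 7, at 20.6 CPM. The sum of the list was also highest there (101 CPM) and lowest in Alg on day 7 (22.5 CPM). Over the whole model, 0 of the 8 genes of this list that were tested were called in either direction between day 14 and day 3, where *Ltb4r* (1.14, SE 0.64), *Il1r2* (1.09, SE 0.48), *Trem1* (−1.02, SE 1.01), and *Clec4e* (−0.86, SE 0.72) had the largest values.

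The attractants of neutrophils varied with the day and the wound. Of 12 attractant and growth factor genes, *Cxcl6* was at 90.2 CPM in Control on day 7 and 0.776 CPM in Control on day 14, the same direction between these libraries as *Lcn2*. *Csf3*, encoding G-CSF, the ligand of the *Csf3r* product, had 3.39 CPM in Control on day 7 and at most 1.58 CPM in the other libraries. *Cxcl1* was highest in d-SMG on day 14 (75.6 CPM) and lowest in Control on day 14 (2.04 CPM). On day 14, the median log2 difference from Control of the genes tested in this list was 3.26 in d-SMG (7 of 8 past 2-fold higher), 1.54 in GAG (4 of 7), and 3.71 in Alg (7 of 8), against −0.01, −0.10, and 0.01 over all genes, of which 12.7%, 26.6%, and 9.51% were past 2-fold higher. On day 7 it was −1.19, −1.66, and −1.97, with 5, 6, and 6 of 8 genes past 2-fold lower, where 5.74%, 12.5%, and 12.1% of all genes were. In the model of all libraries, 0 of 8 genes were called between day 14 and day 3, with *Cxcl1* at 1.42 (SE 0.88) and *Il1b* at 1.12 (SE 0.53).

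The NADPH oxidase, which makes the oxidants of the neutrophil and of the macrophage, was represented by 6 genes that were all measured. Their sum was lowest in GAG on day 14 and day 7 (89.1 and 89.7 CPM) and highest in d-SMG on day 7 (354 CPM). On day 7, 6 of 6 genes were past 2-fold below Control in GAG (median −1.64) and in Alg (median −1.27), and 0 of 6 in d-SMG, where 12.5%, 12.1%, and 5.74% of all genes were. In the same pairs, 7 of 8 macrophage markers were past 2-fold lower in GAG, 8 of 8 in Alg, and 0 of 8 in d-SMG, and their part in these counts was not tested. Between day 14 and day 3, 0 of 6 were called, and the largest value was that of *Cybb* (−0.64, SE 1.11).

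The correlations of the 4 genes with one another and with tissue markers over the 12 libraries are given as a description, since the libraries differ in composition. The log2 CPM of *S100a8* and *S100a9* had a Pearson r of 0.84, whereas *S100a8* and *Csf3r* had 0.03 and *Lcn2* and *Csf3r* 0.59. *S100a8* had an r of 0.84 with the summed keratinocyte markers, which was 0.29 without the d-SMG library of day 3. *Csf3r* had an r of 0.91 with the summed NADPH oxidase genes and of 0.82 with the summed macrophage markers. Without the GAG library of day 14 these were 0.89 and 0.78. *Csf3r* also had 0.92 with the summed mature neutrophil receptors, a list that holds *Csf3r*, and 0.88 with the summed neutrophil adhesion genes. With the secondary and tertiary granule genes *Csf3r* had 0.85, a sum mostly of *Lcn2* (5557 reads in all libraries) and *Itgam* (5266 reads). With the eosinophil markers *Csf3r* had 0.76, a sum almost only of *Siglec5* (5714 reads). *Epx*, *Prg2*, *Prg3*, *Ear1*, and *Ccr3* had 2 to 37 reads each. The r of *Csf3r* was 0.72 with *Ptprc*, 0.15 with the T cell markers, and −0.31 with the keratinocyte markers. *Lcn2* had 0.70 with the summed attractants, and with *S100a8* it had 0.29, or 0.74 without the d-SMG library of day 3. Without that library, *S100a8* and *S100a9* had 0.73, and *S100a9* and *Lcn2* had 0.81. The summed macrophage markers (8 of 8 found) ranged from 159 CPM in GAG on day 14 to 2175 CPM in Alg on day 14, and their part in the *Csf3r* levels was not tested.

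**Figure D4:**
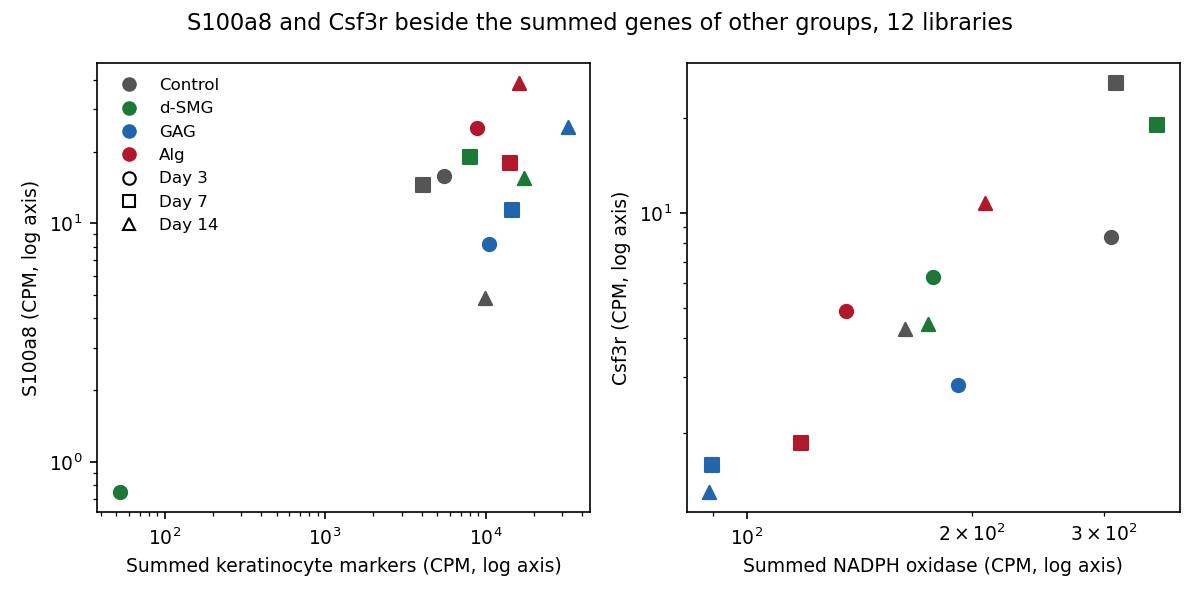
Left, *S100a8* against the summed keratinocyte markers, and right, *Csf3r* against the summed NADPH oxidase genes (CPM, log axes), with 1 point for each of the 12 libraries. The left panel is stretched by the d-SMG library of day 3 at 52.5 and 0.749 CPM, whereas the points of the right panel spread along the whole range from 89.1 to 354 CPM.

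Among all genes that passed the filter, those with the most similar pattern to *Csf3r* over the 12 libraries were *Lgmn* (r = 0.97), *Aoah* (0.97), *Man1c1* (0.96), *Pdpn* (0.96), and *A3galt2* (0.96). *Lgmn* encodes a lysosomal protease and *Aoah* an enzyme that inactivates endotoxin. For *S100a9* they were *LOC689230* (0.93), *Hsd3b7* (0.88), *LOC100910628* (0.86), *S100a8* (0.84), and *LOC102550257* (0.84), of which the 3 provisional genes did not exceed 8.45 CPM in any library. For *Camp*, which did not pass the filter, no such list was computed.

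Keratinocyte genes of the wound edge were examined beside them, because keratinocytes of injured skin also make calprotectin. The summed level of 8 such genes, among them *Krt6a*, *Krt16*, and *Krt17*, was 4.41 CPM in d-SMG on day 3 and 270 to 7707 CPM in the other libraries. The antimicrobial genes of this list, *Defb4* (a beta-defensin) and *S100a7a*, had 36 and 30 reads in all. They were highest in Alg on day 14, at 0.882 and 1.2 CPM, from only 14 and 19 reads. The same library had the highest *S100a8*, *S100a9*, *Lcn2*, and *Sprr1a*. Elsewhere in the list, *Krt6a* was highest in GAG on day 7, *Krt16*, *Krt17*, and *Sprr1b* in GAG on day 14, and *Elf3* in d-SMG on day 14. None of the 5 genes of this list that were tested was called between day 14 and day 3, where *Sprr1a* was at 3.39 (SE 1.23, edgeR adjusted p = 0.893) and *Krt17* at 2.39 (SE 1.10).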

How the data were processed

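Wound RNA of 12 libraries was sequenced as stranded, rRNA-depleted, paired reads. The authors deposited read counts per gene as whole numbers without normalization (25620 genes), and FPKM values scaled by gene length and library total (25524 genes). The submitters' processing notes name bcl2fastq, FastQC, TopHat2, and edgeR without versions. The counting tool and the genome build are not given in the sources used here, and chromosomes are those of the files. In each table, 1 further column of values matched no described sample and was not used. A gene is named by its symbol alone, and near-identical copies, such as the alpha defensins, are uncertain.

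Counts were scaled by TMM in edgeR 4.0.16 (R 4.3.3). The ratio of scaled counts was taken between a dressed library and its same-day Control, with a Clopper-Pearson interval at 95%, a minimum of 10 reads in the pair, and a floor of 3 reads. A difference past 2-fold was counted. Over all libraries, the edgeR quasi-likelihood test was fitted with day and treatment as terms after filterByExpr, with Benjamini-Hochberg adjustment over all genes at an FDR of 0.05. In this model the day is the block of the treatment comparisons. The p-values measure only the spread between these libraries. Correlations used log2 CPM with a prior count of 2. DESeq2 1.42.0, limma 3.58.1, RLE or library-size scaling, no low-count filter, a 4-fold threshold, and FPKM with a pseudocount of 1 or 0.1 were the alternatives, and leaving out either of 2 libraries was chosen after seeing the data. The fits were tested on simulated data with the same dispersion for every gene and no treatment effect. That test does not show how often a difference would be called at the spread of the 4 genes. Plots used Python 3.11.15 (matplotlib 3.10.9).

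The genes and lists were chosen with earlier results of these data known. Named genes are all 10 genes of the set, in other lists up to 4 with the largest fitted difference between day 14 and day 3, and for *S100a9*, *Camp*, and *Csf3r* the 5 nearest by correlation. Other genes were named for their role or level after their values were seen.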

Additional observations from a re-analysis of the deposited data

Results flagged for a closer look

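*Lcn2* stood on opposite sides of Control at different days. Against the Control library of the same day, its log2 difference on day 3 was −1.56 in d-SMG, −5.87 in GAG, and −1.88 in Alg, and on day 7 it was −2.56, −3.80, and −3.27, respectively. On day 14 it was 3.07, 3.65, and 6.87. The 3 dressings of a day share 1 control library, whose *Lcn2* level was 62.8, 77.2, and 0.776 CPM on the 3 days. The difference between the days was not tested, since each group and day had 1 library.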

How the results depend on the processing

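Against Control on the same day, the 4-fold threshold left 1 gene in GAG on day 3, 0 in Alg on day 3, and 1 in d-SMG on day 14. It also dropped *Lcn2* in d-SMG on day 3, *S100a9* in GAG on day 7, and *Csf3r* in GAG and Alg on day 14. With FPKM and a pseudocount of 1 or 0.1, 1 gene was left in Alg on day 3. With a pseudocount of 1, *Csf3r* also fell within 2-fold in GAG on day 3 and in GAG and Alg on day 14. In the model of all libraries, DESeq2 called 38 genes between day 14 and day 3, 7 between day 14 and day 7, and for d-SMG, GAG, and Alg against Control 8, 289, and 83. Without the filter on low counts, 1 gene was called for GAG, and without the d-SMG library of day 3, 67. The cause was not tested. The fit without the replicate block of the day or treatment called 0 genes, as did leaving out each treatment or day in turn, and none of these fits called 1 of the 4 genes described. *S100a9* in d-SMG on day 7 was at −0.02 with RLE size factors, and no other difference from Control on the same day turned its sign. Depth limits *Camp*, *Ngp*, *Ltf*, *Mpo*, and *Elane* most, with 75 reads in all.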
